A study of Mus musculus with 6 samples.

Results

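The cytokine genes described here are 10 genes that encode secreted or membrane-bound inflammatory mediators, read in peritoneal cavity (PC) B1a cells. They are Il9, Il15, Il18, Il1a, Il1b, Tnf, Lta, Ltb, Il6 and Csf2. They were picked by gene name on the array, and each had 1 probe, so 10 of 55681 non-control probes and 10 of 36163 gene names are covered. The list was drawn up with results of this same comparison known. The difference of a cytokine gene between genotypes is therefore given as a description, with no p-value, and the study's thresholds serve only to sort the genes.

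PC B1a cells were sorted by flow cytometry on surface markers, CD11b and CD5 among them, from 7-week-old female mice on a C57Bl/6 background. The knockout group was p40-/-CD25-/- (3 samples) and the control group p40-/-CD25+/- (3 samples), where CD25 is IL-2Rα, the α chain of the IL-2 receptor. Both groups lacked p40, the subunit that IL-12 and IL-23 share, so neither is a wild type, and the control mice carried 1 deleted copy of CD25. Each sample pooled a minimum of 3 mice and was hybridized to 1 array, and the p-values below measure only the spread between these 6 samples. The CD25 deletion was present in every cell of the mice, so the B1a cells came from animals whose other immune cells lacked CD25 as well.

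Cytokines are short-range signals. IL-9 and IL-15 act through receptors that contain the common gamma chain. IL-18, IL-1α and IL-1β belong to the IL-1 family and signal through the adaptor MyD88, and IL-18 and IL-1β are made as precursors that caspase-1 cleaves in the inflammasome. TNF, lymphotoxin α and lymphotoxin β form trimers that engage receptors of the TNF receptor family, IL-6 signals through gp130, and GM-CSF, the product of Csf2, acts on myeloid cells. B1a cells are innate-like B cells of the body cavities that make natural antibody and are known to secrete cytokines, GM-CSF among them.

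The probes are 60 bases long, and what a value reports is hybridization to those bases. The sequences of 5 detected cytokine probes, on which most of the differences below rest, are shown, whole for Il18 and as the first 30 bases for the others, 5′ to 3′.
Il9: aaagccgaccatgaagacagatgctattta
Il18: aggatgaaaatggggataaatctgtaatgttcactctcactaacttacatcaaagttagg
Tnf: tgggctttccgaattcactggagcctcgaa
Lta: aggggaaaaatagaaagccgtcagatgaca
Ltb: atctgtattcattcctggaggatcgactga
In mm9 coordinates of the array files, the Il9 probe lies at chr13:56580678-56580737 on the minus strand and the Il18 probe at chr9:50389761-50389820 on the plus strand. The Ltb probe (chr17:35333097-35333156, plus strand), the Tnf probe (chr17:35336795-35336854, minus strand) and the Lta probe (chr17:35340275-35340334, minus strand) lie side by side on chromosome 17. Whether a probe lies in coding or untranslated sequence was not analysed here.

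All 6 arrays lay on 1 slide and were scanned once, and the knockout arrays were dimmer. The 75th percentile of the signal was 131, 66.5 and 162 intensity units on knockout arrays 1, 2 and 3, against 252 to 272 on the control arrays. Between 39.7% and 45.9% of knockout spots and between 47.2% and 50.6% of control spots were well above background, and no spot was saturated. Every log2 level below is relative to the 75th percentile of its own array, so 0 is that percentile. Of 18252 genes tested with limma, 643 passed the study's thresholds of a 2-fold difference with an unadjusted p of at most 0.05. The share of these calls that was higher in knockout was 64.1%, and it was 44.5% after quantile normalization and 77.0% after scaling on the median of detected probes. After Benjamini-Hochberg adjustment 7 genes passed, and 4 with the replicate number as a block. Il2ra, which encodes the deleted CD25, had log2 levels of -0.31, -0.59 and 0.86 on knockout arrays 1 to 3 (-0.01 ± 0.77, SD, n = 3) and of 1.62, 1.13 and 1.35 in control (1.37 ± 0.25; limma adjusted p = 0.122). Knockout 3 was the highest of its group and near the lowest control, and every array detected the probe above background. Il12b, which encodes p40, was at -2.08 ± 0.39 and -2.06 ± 0.17. Whether these probes lie inside the deleted sequence was not analysed here.

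Of the 10 cytokine genes, 6 had a probe that was detected, that is well above background, in all 3 samples of either genotype or both (Il9, Il15, Il18, Tnf, Lta and Ltb), and 4 of these were above background on all 6 arrays (Il18, Tnf, Lta and Ltb). Il1b and Csf2 were well above background on no array, Il1a on 1 array and Il6 on 2 arrays. Among the 6, Il9 and Lta were past the study's thresholds as higher in knockout and Il18 as lower, a description beside 3.52% of all genes tested in either direction, 2.26% higher and 1.27% lower. The knockout and control arrays did not overlap for 5 of the 6, Il9, Il15, Tnf and Lta above and Il18 below the controls, while the arrays of 36.3% of all genes tested did not overlap, 14.7% as higher and 21.6% as lower. With the methods' t-test in place of limma, Il9 and Il18 were past the thresholds. Since these values chose the list, nothing is read from the counts.

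**Figure D1:**
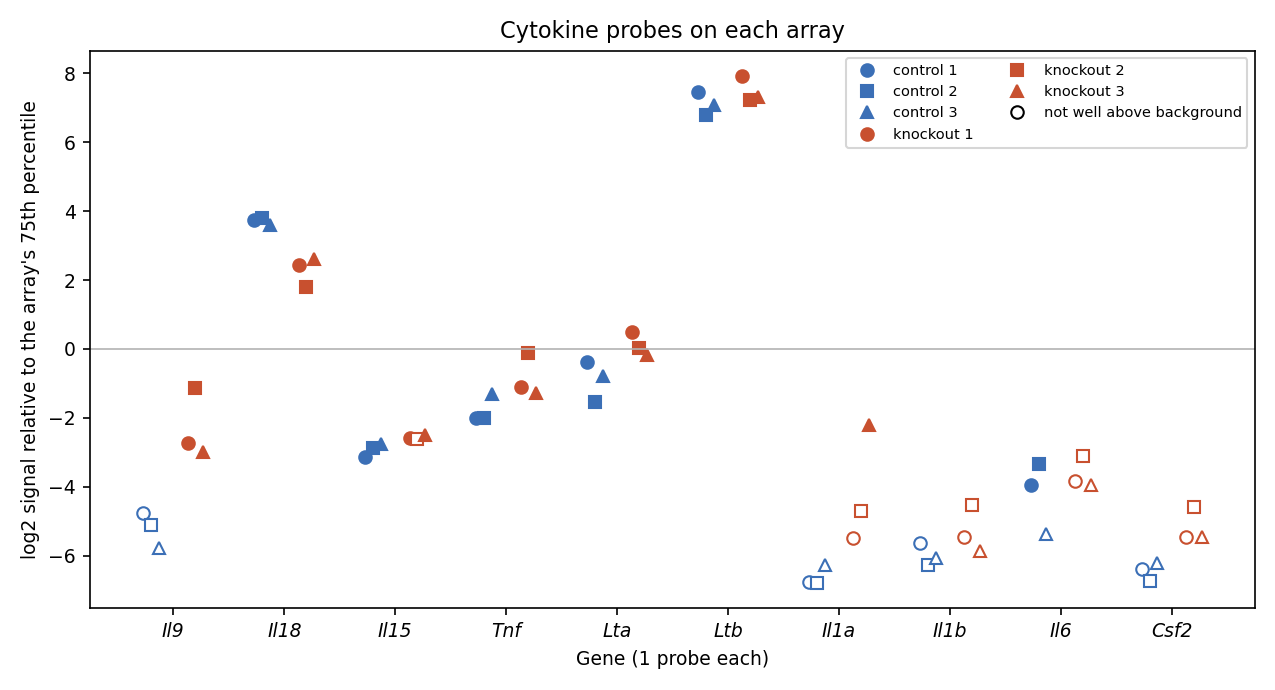
Log2 signal relative to the 75th percentile of each array (y axis) for the 10 cytokine probes (x axis), with 1 point per array, circles, squares and triangles for samples 1, 2 and 3, control in blue and knockout in red, and open symbols where the probe was not well above background. Il9 is open on the 3 control arrays and filled on the 3 knockout arrays, Il18 is lower on the knockout arrays, and Il1b and Csf2 are open throughout.

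Il9, which encodes a growth factor for mast cells and T cells, entered the comparison through its knockout arrays alone. Its fitted log2 difference was the largest among the 6 in this setting. That difference is taken against control readings below background, so no rank is read from it. Under the normexp settings and without scaling between arrays, Il18 differed more. The log2 levels of Il9 were -2.73, -1.15 and -2.99 on knockout arrays 1 to 3 and -4.77, -5.10 and -5.77 on control arrays 1 to 3. All 3 knockout arrays were above all 3 control arrays, and the probe was well above background on each knockout array and on no control array. The control level is thus a bound, and on the scale of the 75th percentile Il9 was at least 4.03-fold higher in knockout, against a fitted log2 difference of 2.93 (SE 0.50) between the measured means of -2.29 ± 1.00 and -5.21 ± 0.51 (SD, n = 3). Before any scaling between arrays, the Il9 signal was 19.8, 30.0 and 20.4 intensity units in knockout and 9.67, 7.35 and 4.97 in control. The order of the groups thus did not rest on the scaling. The ratio of these means was 3.19, but it takes control readings below background as they are and is not a bound. The lowest signals well above background on control arrays 1 to 3 were 12.1, 11.3 and 17.3, nearer to the knockout signals. No bound was computed before scaling. The Il9 signals are dim and come from 1 spot per array. The lowest signals well above background on the same knockout arrays were 14.3, 12.6 and 12.7, and the fitted difference was 1.03 when normexp background correction was used with the 75th percentile and 0.48 with quantile normalization.

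The Il9 receptor chain pairs with the common gamma chain, encoded by Il2rg. Il9r had a log2 level of 0.74, 0.28 and 0.46 in knockout and -0.33, -0.20 and 0.05 in control, and the groups did not overlap. The difference of 0.65 (SE 0.18) was under 2-fold, with a limma adjusted p of 0.123. A second Il9r probe gave 1.69, and the mean of both probes gave 1.17, past the 2-fold threshold. Il2rg was at 3.86 ± 0.24 in knockout and 4.17 ± 0.26 in control, with overlapping arrays.

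Il15 encodes a cytokine that sustains NK cells and memory T cells and is handed over by cells that carry its receptor α chain. Its log2 levels were -2.58, -2.61 and -2.50 in knockout and -3.14, -2.88 and -2.77 in control. All knockout arrays were above all control arrays by a narrow gap, and on knockout 2 the probe was not well above background. The log2 difference was 0.36 (SE 0.15), or 1.29-fold, and it was 0.09 after quantile normalization, so it moved with the scaling. The probe lies at chr8:84858403-84858462 on the minus strand in mm9.

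The other chains of the IL-15 receptor were read on the same arrays. Il2rb encodes the β chain that the IL-2 and IL-15 receptors share. The log2 levels of Il2rb were -0.83, -1.01 and -1.02 in knockout and -2.02, -2.51 and -2.64 in control, with no overlap. Il2rb was past the 2-fold threshold at 2.71-fold higher in knockout (log2 difference 1.44, SE 0.19), and its limma adjusted p was 0.0654. The adjusted p was 0.0469 with the filter on all 6 arrays, 0.0213 with a trend and robust estimation and 0.00471 under normexp with the 75th percentile, and ranged up to 0.282 over the alternatives. The difference was 0.95 under normexp with the 75th percentile and 0.58 under normexp with quantile normalization, both under 2-fold. Il15ra, the presenting α chain, was at 3.41 ± 0.05 in knockout and 3.22 ± 0.17 in control, and the arrays overlapped.

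Il18, which drives interferon gamma production together with IL-12, was the cytokine gene lower in knockout. Its log2 levels were 2.43, 1.80 and 2.60 on the knockout arrays and 3.75, 3.80 and 3.60 on the control arrays. The highest knockout array was more than 1 SD of either group below the lowest control array, and the control arrays lay close together (3.72 ± 0.10 against 2.28 ± 0.42, SD, n = 3). The log2 difference was -1.44 (SE 0.22), or 2.72-fold lower in knockout. It stayed between -1.60 and -1.20 when each array was left out in turn and was -1.27 after quantile normalization. Unscaled, the Il18 signal was 704, 232 and 980 in knockout and 3544, 3512 and 3306 in control, a ratio of means of 5.41. Knockout 2, the dimmest array, held the lowest Il18 value on both scales.

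The genes nearest to Il18 over the 6 arrays, by Pearson correlation among 15665 genes well above background on all of them, were Mterfd2 (r = 0.997), the array transcript NAP093623-001 (r = 0.997) and Dusp12 (r = 0.996), and 26 genes reached at least 0.99. For Lta they were ENSMUST00000101519 (r = 0.993), Lrrc16a (r = 0.992) and an unnamed X-chromosome transcript (r = 0.992). These are descriptions over 6 points that share the genotype difference and the array scaling.

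The IL-18 receptor was at the limit of detection. Il18r1 was well above background on 1 knockout and 1 control array and Il18rap on none. Il18bp, a secreted decoy for IL-18 and named here after its values were seen, was at -0.87 ± 0.12 in knockout and -1.33 ± 0.08 in control, with no overlap (log2 difference 0.46, SE 0.14, limma adjusted p = 0.132). Casp1, the protease that matures IL-18, was at 4.11 ± 0.36 and 4.37 ± 0.14, with overlapping arrays.

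Il1a and Il1b encode the founding ligands of the IL-1 family. Il1b was read by 10 replicate spots per array, and no spot kept for the analysis was well above background on any of the 6 arrays. Its log2 levels of -5.45, -4.52 and -5.88 in knockout and -5.64, -6.28 and -6.05 in control lie below the lowest value well above background on each array, which was -3.20, -2.40 and -3.67 on knockout arrays 1 to 3 and -4.44, -4.48 and -3.98 on control arrays 1 to 3. No fold is given, since a difference was not detectable at this signal. Il1a was well above background on knockout 3 alone, with a signal of 35.1 units against 2.30 to 3.52 on the other 5 arrays. Of their receptors, Il1r1 and Il1r2 were above background on no array, while the accessory chain Il1rap was at -2.49 ± 0.32 in knockout and -2.44 ± 0.32 in control.

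Tnf, Lta and Ltb are neighbours in the genome and encode the core ligands of the TNF family. Tnf, the most widely made of them, had log2 levels of -1.10, -0.11 and -1.29 in knockout and -1.99, -1.99 and -1.30 in control. The groups touched, since knockout 3 and control 3 lay closer together than the replicate spots of 1 array (spot SD 0.099 to 0.160 log2 units). The log2 difference was 0.93 (SE 0.34), or 1.90-fold, below the 2-fold threshold, and knockout 2 carried much of it, for the difference was 0.57 without that array. It was past the 2-fold thresholds without control 3 (1.16), without knockout 1 (1.06), without knockout 3 (1.15) and with scaling on the median of detected probes (1.02). Unscaled, the Tnf signal was 61.3, 61.7 and 66.2 in knockout and 66.6, 63.5 and 110 in control. With scaling, the log2 difference was above 0 under every alternative run, at its lowest 0.45 with normexp and quantile normalization.

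Lta encodes lymphotoxin α, which is secreted on its own or held at the membrane by lymphotoxin β. The 3 knockout arrays read 0.49, 0.02 and -0.16 on the log2 scale and the 3 control arrays -0.39, -1.55 and -0.78, and the 8 to 10 spots kept on each array lay close together (spot SD 0.043 to 0.118). All knockout arrays were above all control arrays, and the spread between samples was several times that between spots. The log2 difference was 1.02 (SE 0.32), or 2.03-fold, just inside the 2-fold threshold, whereas that of Tnf was just outside it. Without control 2, the lowest array, the difference was 0.70, and without knockout 1 it was 0.83, so that Lta was no longer past the threshold. The difference was 0.98 after quantile normalization and with the deposited log2 values, and 0.75 and 0.66 under normexp with the 75th percentile and with quantile normalization. Unscaled, the Lta signal was 185, 67.6 and 145 in knockout and 202, 86.5 and 158 in control, and the unscaled log2 difference was -0.20, on a scale where the median of all genes lies 1.23 lower.

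Ltb, which anchors lymphotoxin to the B cell surface and is known as an abundant B cell transcript, was bright on every array. Its log2 levels were 7.92, 7.23 and 7.32 in knockout and 7.45, 6.80 and 7.08 in control. The arrays overlapped, with control 1 above knockout 2 and knockout 3. The log2 difference was 0.38 (SE 0.25), or 1.30-fold. Each knockout array was above the control array of the same replicate number. Its unscaled signal was 31672, 9992 and 25789 in knockout and 46092, 28108 and 36657 in control.

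**Figure D2:**
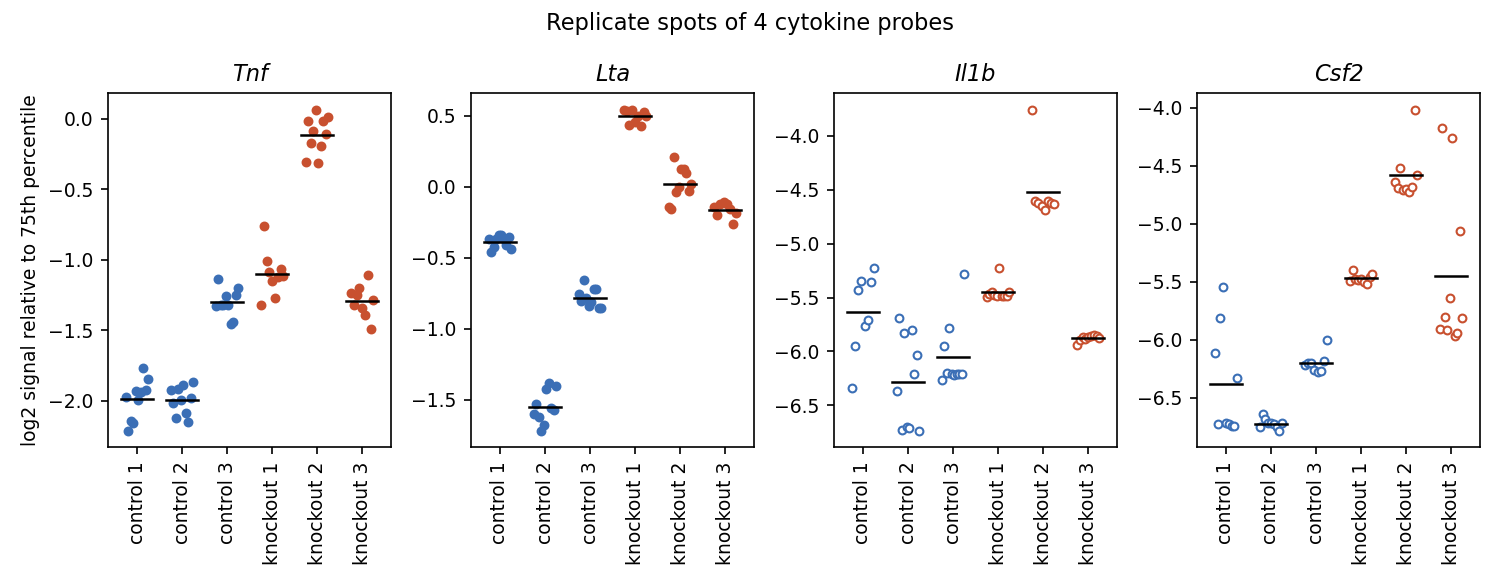
Log2 signal relative to the 75th percentile of the array (y axis) of each replicate spot kept after outlier spots were left out, for the Tnf, Lta, Il1b and Csf2 probes on the 6 arrays (x axis), with the mean of the spots as a black line, open points for spots not well above background, and a y axis of its own for each gene. The spots of Tnf and Lta lie close together on each array, knockout 3 and control 3 coincide for Tnf, and every spot drawn for Il1b and Csf2 is open.

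**Figure D3:**
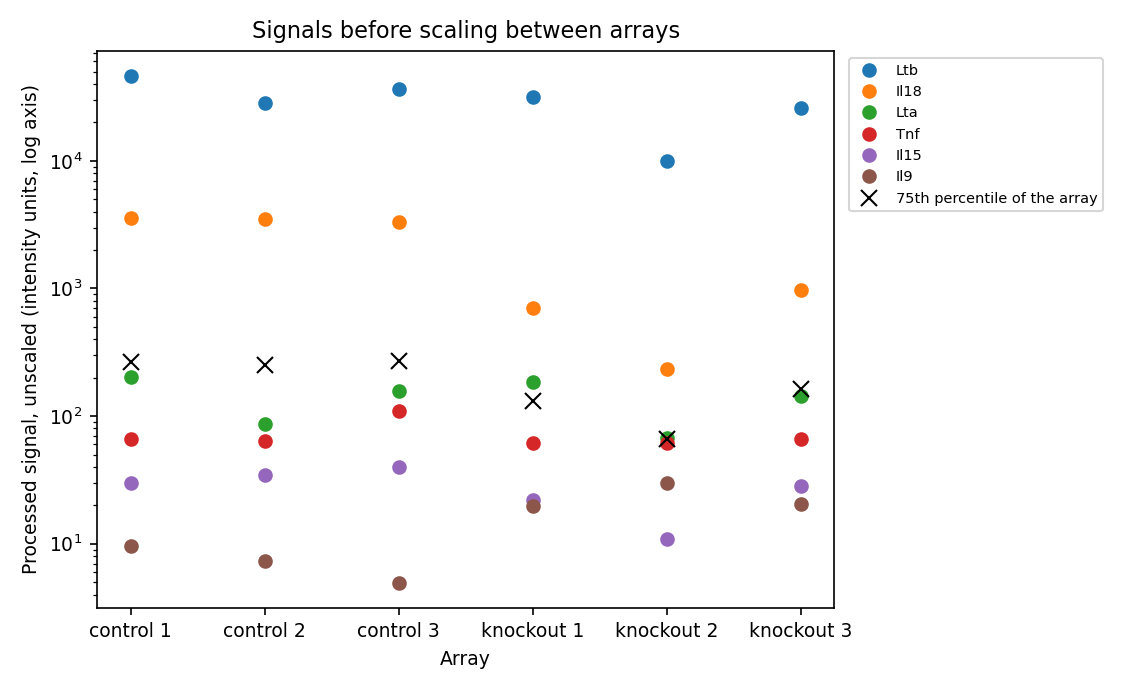
Processed signal in intensity units before any scaling between arrays (log y axis) of 6 cytokine probes on the 6 arrays (x axis), with the 75th percentile of each array as black crosses. Il9 is the cytokine that is brighter on all 3 knockout arrays, Tnf stays between 61.3 and 66.2 units on the knockout arrays, where the percentile is lower, and Il18 drops further than the percentile.

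None of the receptors of the TNF family ligands passed the 2-fold thresholds, beside 3.52% of all genes. Tnfrsf1a, the main TNF receptor, was at -0.06 ± 0.30 in knockout and 0.41 ± 0.17 in control, without overlap (log2 difference -0.47, SE 0.19, limma adjusted p = 0.192). Tnfrsf1b differed by -0.18 with overlapping arrays. Tnfrsf14, a receptor that also binds lymphotoxin α, differed by 0.15 and by -0.04 after quantile normalization. Ltbr, the receptor of the membrane lymphotoxin complex, was well above background on 1 knockout and 3 control arrays, with a fitted difference of -0.21 that was 0.40 under normexp with the 75th percentile.

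Il6, which promotes antibody-secreting cells and the acute phase response, was well above background on control 1 and control 2 alone. Its log2 levels were -3.82, -3.11 and -3.96 in knockout and -3.95, -3.33 and -5.37 in control. The knockout values lie in about the range of control 1 and control 2 on this scale, yet below the lowest value well above background on their own dimmer arrays. Il6 was thus not detectable in knockout at this signal, which does not show that it was absent. Its receptor chains were both lower in knockout and without overlap, as were 21.6% of all genes tested. Il6ra was at 4.91 ± 0.36 in knockout and 5.48 ± 0.14 in control (limma adjusted p = 0.162). Il6st, which encodes gp130, was at 2.56 ± 0.49 and 3.37 ± 0.09 (log2 difference -0.80, SE 0.25, limma adjusted p = 0.133), and the difference was -1.08, past 2-fold, without knockout 3.

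Csf2 was read by 10 replicate spots per array, and no spot kept after outlier spots were left out was well above background on any array. Its log2 levels were -5.47, -4.58 and -5.45 in knockout and -6.38, -6.72 and -6.20 in control, and its unscaled signals were 2.39 to 4.18 units on all 6 arrays. The higher knockout levels on the log2 scale go with the dimmer 75th percentiles of these arrays, and no fold is given. Csf2ra and Csf2rb encode the chains of the GM-CSF receptor, and Csf2rb2 encodes a β chain of the IL-3 receptor. All were well above background on all 6 arrays. Csf2ra differed by -0.17, Csf2rb by -0.23 and Csf2rb2 by -0.57 (SE 0.15, limma adjusted p = 0.119). Each was without overlap, as were 21.6% of all genes tested in this direction. The adjusted p of Csf2rb2 was 0.0461 with a trend and robust estimation and 0.00942 under normexp with the 75th percentile. Csf2ra differed by 0.0042 after quantile normalization, so its direction turned with the scaling. Csf2rb and Csf2rb2 are close copies of each other, and their probes may share signal.

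The genes that bind, process, restrain or transmit these cytokines were taken from 5 lists of 102 genes, of which 93 could be tested. Of these, 2 passed the 2-fold thresholds as higher (Il2rb and Nlrp1b), 1 as lower (Cebpa), and 0 passed after limma with Benjamini-Hochberg adjustment, against 3.52% and 0.0384% of all genes tested. At an unadjusted p under 0.05, 23 of the 93 passed in limma, beside 25.1% of all genes, and 20 by the methods' t-test, beside 21.7%. After adjustment with a trend and robust estimation 4 passed, beside 4.13% of all genes. The groups did not overlap for 11 of the 93 as higher and for 20 as lower, beside 14.7% and 21.6% of all genes. These shares are near those of all genes. The median log2 difference of the 93 was -0.21 beside -0.12 for all genes tested, and 30 were above and 63 below 0, where 7263 of all 18252 genes were above. The median of the 93 moved with the processing. It was -0.08 after quantile normalization, as for all genes, and -0.39 against -0.10 for all genes under normexp with the 75th percentile, where 21 were above and 72 below 0 and 36 passed after adjustment beside 35.5% of all genes.

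By role, 14 of 18 receptor genes were tested, of which 1 passed the 2-fold thresholds as higher. At an unadjusted p under 0.05, 6 of the 14 receptor genes passed in limma and 4 by the methods' t-test, beside 25.1% and 21.7% of all genes. Of 16 tested genes for processing and release, 1 was higher, Nlrp1b, an inflammasome sensor, at -2.49 ± 0.59 in knockout and -3.66 ± 0.17 in control, or 2.26-fold (log2 difference 1.18, SE 0.29, limma adjusted p = 0.114). Nlrp1b differed by 0.91 after quantile normalization, by 0.82 and 0.25 under normexp with the 75th percentile and with quantile normalization, and by 0.93 without knockout 2, all under 2-fold. None of 16 tested inhibitors passed, and the members furthest from 0 were the SOCS family genes Socs2 (log2 difference -0.88, limma adjusted p = 0.168) and Cish (-0.78, limma adjusted p = 0.164), both with overlapping arrays. Without knockout 3 these differences were -1.26 and -1.12, past the 2-fold thresholds, as was Socs2 without control 3 (-1.02). Under normexp with the 75th percentile, Cish (-1.04, limma adjusted p = 0.00899) and Il6st (-1.03) were the pathway genes past the 2-fold thresholds, in place of Il2rb, Nlrp1b and Cebpa. At an unadjusted p under 0.05, 4 of the 16 inhibitors passed in limma and by the methods' t-test, beside 25.1% and 21.7% of all genes.

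None of 25 signalling adaptors and kinases passed the 2-fold thresholds, and 5 had an unadjusted p under 0.05 in limma and 4 by the methods' t-test, beside 25.1% and 21.7% of all genes. Irak4, a kinase below MyD88, differed by 0.66 (SE 0.13, limma adjusted p = 0.0976), while a second Irak4 probe gave -0.33, so the probes disagree in direction. Irak2 differed by 0.55 (limma adjusted p = 0.193) and by 0.26 on its second probe. Of the 25, 20 were below 0, and 14 after quantile normalization. Of 22 tested transcription factors that act on cytokine genes, 1 passed as lower, Cebpa, a factor of myeloid cells. Cebpa was above background on 3 control arrays and no knockout array, with a fitted difference of -1.57 (limma adjusted p = 0.182). No fold is given for it, since its control level did not exceed the bound of the knockout arrays, its arrays overlapped, and the difference was 0.42 under normexp with the 75th percentile. Cebpa was no longer past the thresholds when control 1, control 2, knockout 1 or knockout 3 was left out.

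**Figure D4:**
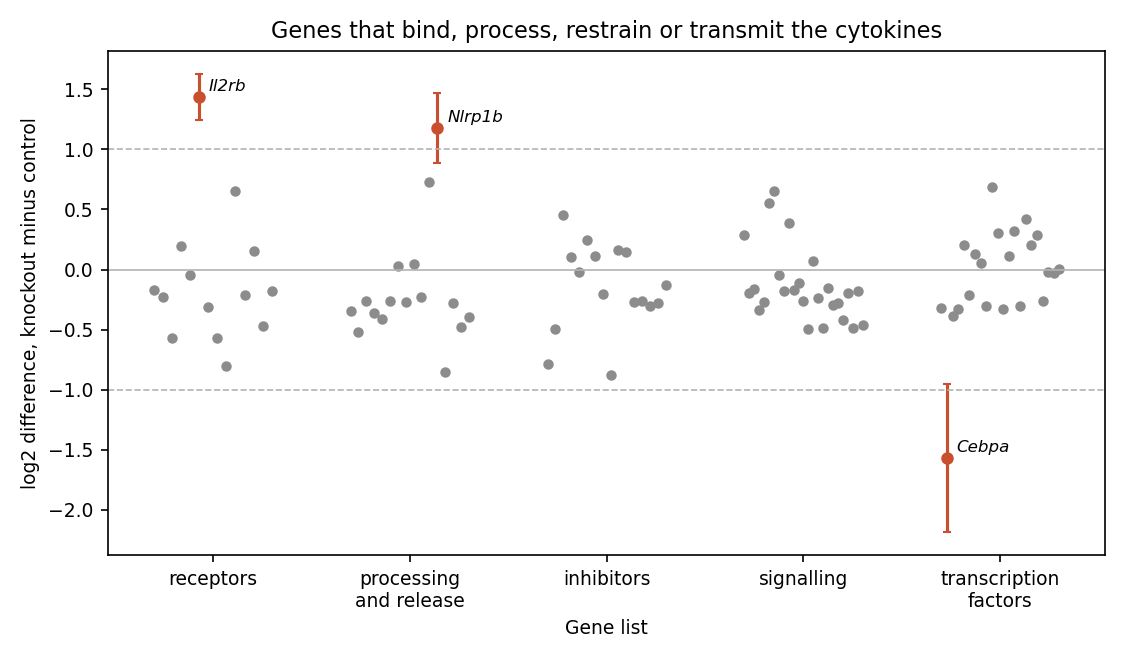
Log2 difference between knockout and control (y axis) of the 93 tested genes in 5 gene lists (x axis), with 1 point per gene, dashed lines at a 2-fold difference and bars of 1 SE on the genes past the 2-fold thresholds. Il2rb and Nlrp1b lie above the upper line and Cebpa below the lower line, and the other 90 genes lie between them.

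A letter pattern of the kind bound by NF-κB, GGG followed by any pair of bases and then TTTCC, on either strand, was searched in the 250 bases before the start of each gene in RefSeq promoters (GRCm38.p6). The pattern was found in 464 of 32851 promoters, or 1.41%, and in 3 of the 9 cytokine promoters that matched by symbol, those of Il6, Il9 and Ltb. The promoters of Il9 and Ltb, the genes of these 3 with a tested probe, are shown with the pattern in capitals, 5′ to 3′. The Il9 window is chr13:56482258-56482507 on the minus strand with the pattern 54 to 45 bases before the start, and the Ltb window is chr17:35194257-35194506 on the plus strand with the pattern reversed at 87 to 78 bases.
Il9: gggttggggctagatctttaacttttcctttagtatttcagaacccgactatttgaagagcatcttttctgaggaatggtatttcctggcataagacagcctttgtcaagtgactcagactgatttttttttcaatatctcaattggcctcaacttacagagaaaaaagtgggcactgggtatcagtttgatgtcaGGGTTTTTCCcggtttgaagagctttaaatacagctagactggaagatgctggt
Ltb: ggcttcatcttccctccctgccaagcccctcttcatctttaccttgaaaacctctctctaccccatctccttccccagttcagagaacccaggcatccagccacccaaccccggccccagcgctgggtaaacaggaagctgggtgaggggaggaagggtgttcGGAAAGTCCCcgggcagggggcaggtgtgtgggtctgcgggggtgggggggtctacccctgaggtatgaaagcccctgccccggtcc
A match is a run of letters and not a bound site, and nothing was measured at these promoters.

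Other cells can make the same cytokines, so markers of the sorted cells and of their neighbours were read on the same arrays. In sorted samples, fewer cells of a type and less RNA per cell cannot be told apart. All 8 B cell markers were well above background on all arrays, and the summed levels, on a linear scale relative to the 75th percentile, were 1279 to 1503 in knockout and 1245 to 1281 in control, which overlapped. Of 12 macrophage markers, 9 were above background on every knockout array and 10 on every control array, with summed levels of 15.0 to 29.4 and 16.9 to 34.1 that overlapped. All 10 tested macrophage markers were below 0, with a median log2 difference of -0.27 beside -0.12 for all genes tested. Lyz2 passed the 2-fold thresholds as lower, and the arrays of each of the 10 overlapped. Macrophages make IL-18, and the part of these transcripts in the Il18 difference was not tested.

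For Il9, known from T cells, mast cells and innate lymphoid cells, the marker values were mixed. Of 11 T cell markers, 7 were above background on every knockout array and 6 on every control array, with summed levels of 14.1 to 16.2 and 9.10 to 15.2 that overlapped and in which Lck was the largest term on every array. Of the 7 tested T cell markers 6 were above 0, with a median log2 difference of 0.60, Cd3d passed the 2-fold thresholds as higher, and Cd3e did not overlap between the groups (log2 difference 0.60, limma adjusted p = 0.127). Of 9 NK and innate lymphoid cell markers, 3 were above background on every knockout array and 2 on every control array. Their summed levels were 3.07 to 5.45 in knockout and 2.43 to 2.68 in control and did not overlap. Nkg7 was the largest term on every array. Nkg7 passed the 2-fold thresholds as higher, while Gzma (log2 difference 1.44) and Prf1 (0.15) did not pass and their arrays overlapped. Il1rl1 went the other way, above background on 2 control arrays (log2 levels -1.61 and -2.53) and no knockout array. Eomes was above background on 1 knockout array alone, and Ncr1, Klrb1c, Klrk1 and Rora on no array. Of 9 mast cell and basophil markers, 2 were above background on every knockout array and 4 on every control array. Their summed levels were 1.46 to 1.94 and 1.14 to 4.80, and the arrays overlapped. Cpa3, Mcpt4, Tpsb2 and Hdc were above background on all 3 control arrays, and Mcpt4 (log2 difference -2.01, limma adjusted p = 0.200) and Cpa3 (-1.27, limma adjusted p = 0.290) lay lower in knockout with overlapping arrays. Ms4a2 and Mcpt8 were above background on no array. The part of T cell and NK cell transcripts in the Il9, Lta and Il2rb differences was not tested. Of 7 neutrophil markers, 3 were above background on every array of each genotype, with summed levels of 116 to 224 and 109 to 118 that were set almost wholly by Csf3r, with Camp higher past the 2-fold thresholds and Cxcr2 above background on no array. Of 7 mesothelial markers, 6 were above background on no array, and the summed levels, set by the other one, were 3.49 to 6.78 and 6.45 to 8.27.

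**Figure D5:**
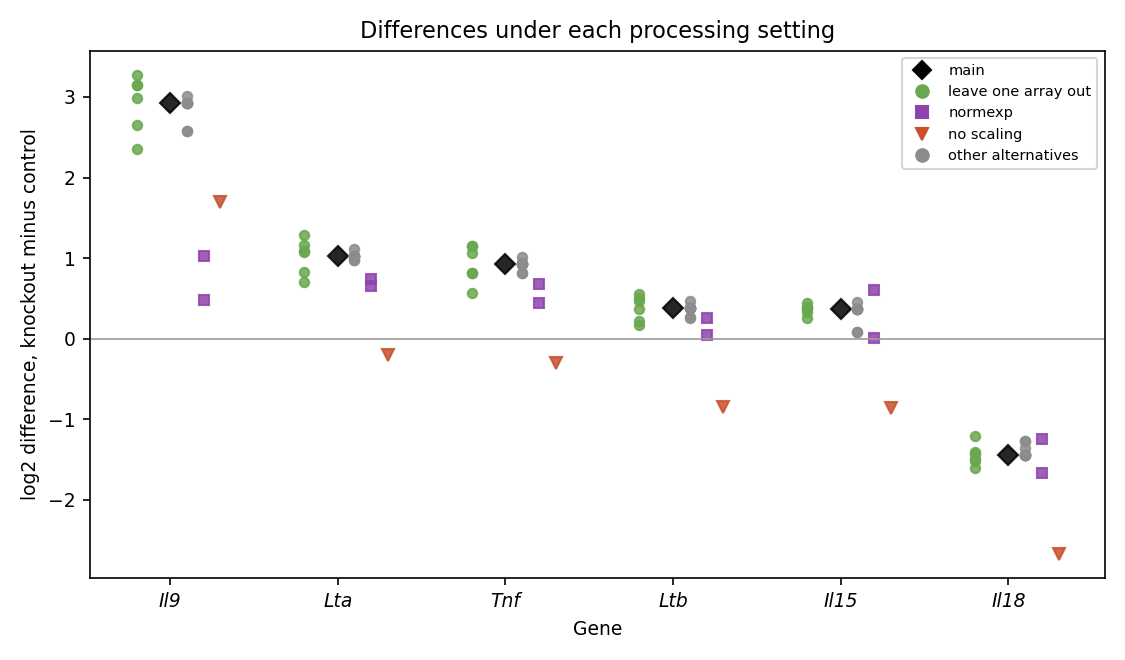
Log2 difference between knockout and control (y axis) of the 6 cytokine genes with a tested probe (x axis) under the setting used in the text (black diamond), with each array left out (green), with normexp background correction (purple), with no scaling between arrays (red triangle) and under the other alternatives (grey). Il9 stays above 0 and Il18 below 0 under every setting drawn, while Lta, Tnf, Ltb and Il15 lie below 0 where the arrays are not scaled, a setting that lowers the median of all genes by 1.23.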

How the data were processed

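Total RNA of sorted PC B1a cells was hybridized to 1-colour Agilent arrays and read with Feature Extraction 10.7.1.1. For every array the authors deposited spot intensity after background subtraction, without scaling across arrays. They also deposited log2 values in 1 table, which served as an alternative. Log2 of the processed signal minus the 75th percentile of the array over 59305 non-control spots was computed, outlier spots (163 to 251 per array) were left out and replicate spots were averaged. The tests took 24751 probes, those detected well above background (over 0.5 of the spots) in the 3 samples of either genotype, and the brightest such probe stood for its gene. The 2 groups were compared in limma 3.58.1 (R 4.3.3; lmFit, eBayes), without covariates, two-sided, adjusted by the Benjamini-Hochberg method over 18252 genes with a threshold of 0.05. The fit was tested on simulated data.

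Where a group was above background on no array, the fold is a bound. Each array then contributes its lowest value well above background or the probe's own value, whichever was higher, and these were averaged. The samples carry replicate numbers. Deviations of same-numbered arrays from their group means correlated at 0.211, 0.106 and 0.177, so the numbers were taken as pairs in the blocked fit; the labels do not say what they mark. Alternatives were other scalings, normexp (offset 50), the deposited log2 values, other filters, probe averaging, other tests, the replicate block and leaving out each array. No scaling between arrays was added after seeing the data, for the cytokine differences alone. Genes named are the 10 cytokines, all receptor genes, in each other list the genes past the 2-fold thresholds or the 2 furthest from 0, and the deleted genes. Casp1, Il18bp and single marker genes were named after their values were seen. The cytokines and lists were chosen with earlier results of these data known. Promoters are RefSeq's, and 9 of 10 cytokine genes matched. The number of arrays limits the precision. Of the marker lists, 1 gene is not reported here and was left out of its list.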

Additional observations from a re-analysis of the deposited data

Results flagged for a closer look

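Il1a stood out as a signal outside the comparisons, since it was well above background on 1 array. On knockout 3 its log2 level was -2.2 and its signal 35.1 intensity units, while the other 5 arrays were between 2.30 and 3.52 units and not well above background. The value comes from 1 spot and was not tested. On the same array, and named here after their values were seen, the T cell markers Cd8a (log2 level -3.06) and Cd8b1 (-1.65) were above the lowest value well above background (-3.67), and they were above it on no other array. The other T cell markers were mixed there. Among the knockout arrays Cd3d was highest (-0.28) and Cd28 lowest (-2.20) on knockout 3, and the summed T cell level was 16.2 on knockout 1 and on knockout 3.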

How the results depend on the processing

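With 3 samples a group and dim knockout arrays, low signals such as Il6, Il1b and Csf2 could not be compared. The 643 genes at the 2-fold thresholds became 192 with normexp and the 75th percentile, 161 with normexp and quantile normalization, 10640 with no filter on dim probes (which moved the median of all genes by 0.52) and 602 to 1146 with an array left out (1146 without knockout 3). The 7 adjusted calls became 22 after quantile normalization and with the deposited log2 values, 6483 and 14 with the normexp settings, 2 with no filter, 26 with the filter on all 6 arrays, 11 with the mean of probes, 2 by the methods' t-test, 754 with a trend and robust estimation, 4 with the replicate block, and 2 to 112 with an array left out (112 without knockout 3). The block changed no other count at the 2-fold thresholds by over 1.5 times (647 genes, 3 cytokines, 3 pathway genes), and 2 in place of 4 inhibitors had an unadjusted p under 0.05. The 3 cytokines became 1 (Il18) with normexp and quantile normalization, 5 with no filter and 2 to 4 with an array left out. They were 2 (Il18 and Il9) after quantile normalization. The 3 pathway genes became 0 with normexp and quantile normalization, 6 with no filter and 2 to 5 with an array left out (5 without knockout 3). With no scaling between arrays, which moved the median of all genes by -1.23, the log2 differences of Tnf (-0.30), Lta (-0.20), Ltb (-0.85) and Il15 (-0.86) lay below 0, as any difference smaller than that shift would. Scaling on the median of detected probes reversed Il1rap (0.046) and Il12b (0.070). Normexp with the 75th percentile reversed Il1rap (0.43), Ltbr (0.40), Il15ra (-0.071), Cebpa (0.42) and Il12b (0.35). Quantile normalization reversed Tnfrsf14 (-0.035) and Csf2ra (0.0042), as did the deposited values (-0.034 and 0.0042), and normexp with quantile normalization reversed Csf2ra (0.013). With an array left out, Il1rap ranged from -0.22 to 0.11, Ltbr from -0.80 to 0.15 and Il12b from -0.16 to 0.20. The cause was not tested.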
